A study of Mus musculus with 14 samples.

Results

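The matrix metalloproteinases (MMPs) and their tissue inhibitors (TIMPs) measured in mouse left ventricle were taken as all rows of the count table whose gene name was one of 10 listed symbols. These were 4 inhibitors, Timp1, Timp2, Timp3 and Timp4, and 6 proteinases, Mmp2, Mmp3, Mmp9, Mmp14, Mmp15 and Mmp23, out of 49315 genes in the table. All 10 were among the 15292 genes that passed the filter on low counts. RNA came from left ventricular tissue of male wild-type mice (WT) and of Hcn4 knock-in mice (HCN4F), which carry a tyrosine-to-phenylalanine replacement in the pacemaker channel HCN4, a gain-of-function change in a line with a faster heart rate. Mice were operated at 10 to 12 weeks of age, by transverse aortic constriction (TAC), which narrows the aorta and loads the left ventricle with pressure, or by a Sham operation, and hearts were taken 5 weeks later. The libraries analysed were 4 of WT-Sham, 4 of HCN4F-Sham, 2 of WT-TAC (replicates 2 and 3) and 4 of HCN4F-TAC. The knock-in change is present in every cell and not limited to the ventricle, and the sources used here gave no zygosity or strain.

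MMPs are zinc-dependent proteinases that cut collagens, basement membrane and other matrix proteins, and most are made as inactive proenzymes that other proteinases cut open. TIMPs bind the active site of MMPs and block it. In the heart, fibroblasts make most interstitial collagen and several MMPs and TIMPs, and the balance between the 2 families is a standard readout of matrix turnover under pressure load. RNA levels report neither proenzyme activation nor enzyme activity. Because whole tissue was sequenced, fewer cells of a type and less RNA per cell cannot be told apart.

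Library totals were 22309914 to 35210939 counts (median 27676182), so that 3 counts, the limit that a count of 0 allows, corresponded to 0.0858 to 0.137 CPM, a gene's count scaled to the size of its library. Mitochondrial genes took 13.9 to 23.1% of the counts. The 6 cardiomyocyte markers (Myh6, Tnnt2, Tnni3, Actc1, Myl2 and Ryr2) summed to 47940 to 67041 CPM per library and the 5 atrial markers (Sln, Myl7, Myl4, Bmp10 and Dkk3) summed to 3.46 to 9.49 CPM in 12 libraries, to 18.4 CPM in HCN4F-TAC replicate 4 and to 55.2 CPM in HCN4F-TAC replicate 2. HCN4F-TAC replicate 2 also had the lowest mitochondrial share, and results that rest on it are given with and without it. The knock-in changes 1 residue, so the level of Hcn4, at 3.49 to 13.4 CPM over all libraries, does not check the genotype labels. Libraries are described as biological replicates, and p-values measure the spread between them. The sample titles carry a number whose meaning was not given. Every HCN4F number was below every WT number, and both WT-TAC numbers were below all WT-Sham numbers. Whatever these numbers stand for cannot be told apart from genotype or, in WT, from surgery.

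Promoter sequences are shown for 3 genes that the results turn on: Timp1 and Mmp3, which changed most after TAC, and Mmp15, which differed by genotype in Sham. RefSeq windows (GRCm38.p6) were found for 8 of the 10 genes, and none was printed for Mmp2 or Mmp9. Each line below runs 5′ to 3′ on the gene's strand over the 250 bases before the transcription start. Capitals mark matches, on either strand, to the AP-1 motif TGANTCA (which reads the same on both strands), the TATA box TATAAA and the PEA3 motif AGGAAG, motifs classically described in MMP promoters. No marked matches overlapped.
Timp1, chrX:20869916-20870165, plus strand: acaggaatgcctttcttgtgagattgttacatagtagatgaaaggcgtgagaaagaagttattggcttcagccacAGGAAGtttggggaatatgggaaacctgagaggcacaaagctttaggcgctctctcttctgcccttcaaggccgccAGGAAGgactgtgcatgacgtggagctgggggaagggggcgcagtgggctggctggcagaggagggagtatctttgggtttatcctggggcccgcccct
Mmp3, chr9:7445572-7445821, plus strand: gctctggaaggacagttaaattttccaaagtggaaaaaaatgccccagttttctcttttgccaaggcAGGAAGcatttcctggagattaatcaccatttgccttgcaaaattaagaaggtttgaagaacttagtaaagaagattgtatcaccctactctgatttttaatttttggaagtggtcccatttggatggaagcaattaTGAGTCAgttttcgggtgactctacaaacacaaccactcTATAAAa
Mmp15, chr8:95352046-95352295, plus strand: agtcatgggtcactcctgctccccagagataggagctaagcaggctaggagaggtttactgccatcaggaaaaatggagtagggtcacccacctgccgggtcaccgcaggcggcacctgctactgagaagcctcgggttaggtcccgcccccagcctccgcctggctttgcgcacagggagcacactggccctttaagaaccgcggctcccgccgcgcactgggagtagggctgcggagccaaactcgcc
The Mmp3 window held an AP-1 match starting 46 bases before the start, a TATA match 7 bases before it and an AGGAAG 183 bases before it. The Timp1 window held AGGAAG 175 and 99 bases before the start and neither of the other motifs, and the Mmp15 window held none of the 3. Among the 8 windows, Mmp3 was alone in holding an AP-1 or a TATA match, and Timp3, Timp4 and Mmp14 each held 1 PEA3 match. Of all 32851 RefSeq windows of the same length, 6.75% held the AP-1 motif, 12.4% the TATA box and 29.5% the PEA3 motif on either strand. The Mmp3 window was 37.6% GC and the Mmp15 window 63.6%, against a median of 52.4% over all windows. A match is a description of letters only, and was not tested as a binding site.

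Scaled to exon length, the 10 genes spanned more than 2 orders of magnitude in WT-Sham hearts, and 5 of them, Mmp15, Timp2, Timp3, Mmp2 and Timp4, made up the high end. Levels were 38.0 ± 1.74 CPM per kb of exon for Mmp15 (mean ± SD, n = 4), 25.8 ± 1.28 for Timp2, 22.7 ± 1.57 for Timp3, 16.1 ± 0.545 for Mmp2 and 13.3 ± 3.0 for Timp4. Mmp14 followed at 3.99 ± 0.331, Mmp23 at 2.1 ± 0.149, Timp1 at 1.67 ± 0.177, Mmp3 at 1.51 ± 0.368 and Mmp9 at 0.145 ± 0.0737 CPM per kb. Neighbouring genes in this order had overlapping library ranges in 3 cases, Timp2 with Timp3, Mmp2 with Timp4, and Timp1 with Mmp3, and ranges apart in the others. In HCN4F-TAC hearts the order changed: Timp1, at 9.86 ± 4.02 CPM per kb (n = 4), stood above Timp4, at 7.81 ± 1.22, although their library ranges of 3.98 to 13.0 and 6.49 to 9.35 overlapped. Mmp15, at 27.2 ± 1.33, and Timp2, at 27.1 ± 3.62 CPM per kb, were then level. Lengths were those of all annotated exons of a gene merged, 888 bases for Timp1 and 5894 for Timp4, and the order depends on this choice. In CPM without length scaling, Timp4 stayed above Timp1 in HCN4F-TAC, at a mean of 46.0 against 8.75.

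**Figure D1:**
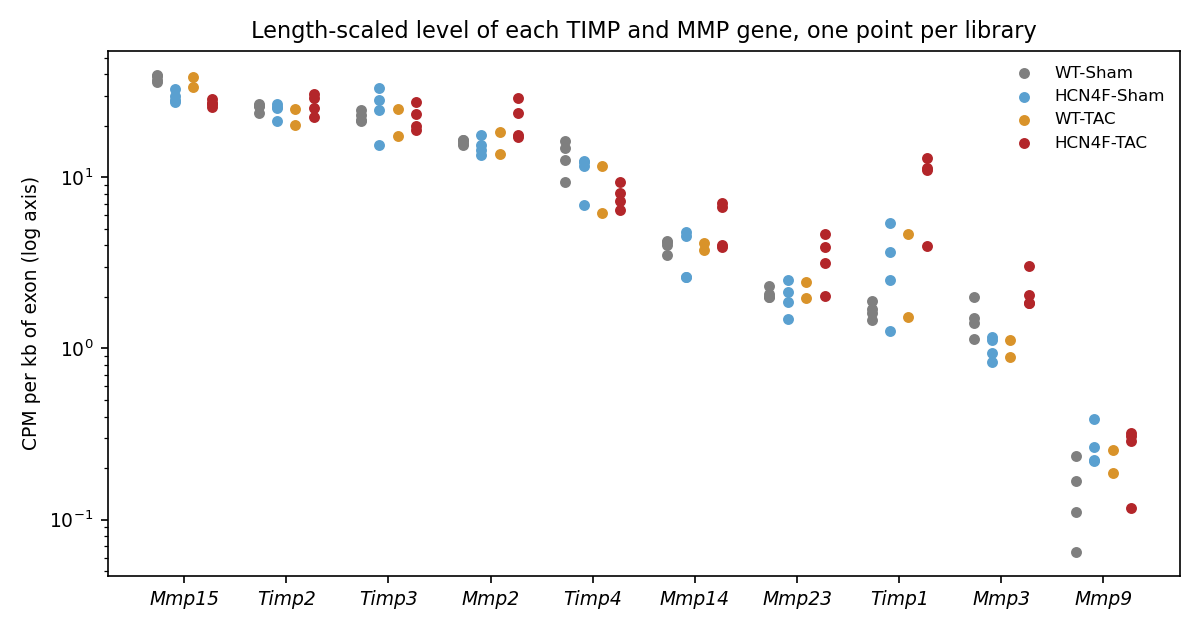
Level of each gene in CPM per kb of exon (y axis, log scale) for every library, with 1 point per library coloured by group and genes ordered by their WT-Sham mean. Mmp15 is highest at 38.0 and Mmp9 lowest at 0.145 CPM per kb in WT-Sham, and the HCN4F-TAC points of Timp1 reach 13.0.

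After TAC, 4 of the 10 genes rose in HCN4F hearts and none fell: Timp1, Mmp3, Mmp23 and Mmp2. The fold changes ranged from 1.45 for Mmp2 to 3.11 for Timp1. With the replicate number added to the edgeR fit as a block, Mmp3, Mmp23 and Mmp2 still rose. Timp1 was then not called (adjusted p = 0.0586), and Timp4 was called lower (-0.44, adjusted p = 0.0172). Over all genes tested in HCN4F-TAC against HCN4F-Sham, 7.2% were called higher and 6.42% lower at an adjusted p under 0.05 (edgeR quasi-likelihood test, Benjamini-Hochberg over all genes). The median log2 fold change of the 10 genes was 0.33, against -0.01 over all genes. With the study's added threshold of a log2 fold change above 1 in size, Timp1 and Mmp3 remained, where 1.58% of all genes were called higher and 1.16% lower. Without HCN4F-TAC replicate 2, the library with the high atrial markers, Mmp3 alone was called (0.91, adjusted p = 0.00838), where 1329 of 15220 genes were called in either direction. None of the 10 then passed with the added threshold. Timp1 was at 1.47, Mmp23 at 0.71 and Mmp2 at 0.36 on the log2 scale without that library.

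Timp1 encodes a secreted inhibitor that fibroblasts and other cells induce in injury and inflammation. It lies at chrX:20870166-20874735 (GRCm38, plus strand). In WT-Sham it was measured at 1.51, 1.31, 1.68 and 1.44 CPM in replicates 1 to 4, and in HCN4F-Sham at 4.82, 3.24, 2.24 and 1.12 CPM. In WT-TAC it was at 1.35 and 4.12 CPM in replicates 2 and 3, and in HCN4F-TAC at 9.78, 11.6, 3.53 and 10.1 CPM. The WT-Sham libraries lay close together, the HCN4F-Sham libraries spread over about a 4-fold range, and 3 of the 4 HCN4F-TAC libraries lay above every other library, while replicate 3 lay within the HCN4F-Sham range. In HCN4F hearts TAC raised Timp1 by 1.64 ± 0.45 on the log2 scale (SE; 95% interval 0.67 to 2.61; adjusted p = 0.0297). The call was lost (adjusted p 0.0589 to 0.0834) when HCN4F-Sham replicate 2, 3 or 4 or HCN4F-TAC replicate 1, 2 or 4 was left out, while the log2 change stayed between 1.35 and 2.03 over all single-library omissions. With all libraries kept, edgeR also lost the call on the compared groups alone (adjusted p = 0.0774), without the filter on low counts (adjusted p = 0.0768) and with the replicate block (adjusted p = 0.0586).

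In WT hearts the log2 difference of Timp1 was 0.93 ± 0.60 (adjusted p = 0.385). It rested on WT-TAC replicate 3: the value was -0.13 without that library and 1.47 without replicate 2. HCN4F-TAC hearts were 1.63 ± 0.57 above WT-TAC hearts in log2 Timp1 (95% interval 0.40 to 2.86; unadjusted p = 0.0136, adjusted p = 0.262 in the fit over all genes), a difference of 2.69 if WT-TAC replicate 3 was left out and of 1.08 if replicate 2 was. It was 1.44 (adjusted p = 0.482) without HCN4F-TAC replicate 2. With 2 WT-TAC libraries that differed about 3-fold from each other, the genotype difference after TAC did not pass the test.

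The summed level of 5 activated fibroblast markers (Postn, Cthrc1, Fap, Comp and Meox1) was highest in HCN4F-TAC, as Timp1 was. It was 35 to 39 CPM in WT-Sham, 35.1 to 46.0 in HCN4F-Sham, 51.3 to 53.9 in WT-TAC and 66.7 to 244 CPM in HCN4F-TAC. Within HCN4F-TAC it was lowest, 66.7 CPM, in replicate 3, where Timp1 was lowest, and highest, 244 CPM, in replicate 2, where Timp1 was highest. Of the 5 markers, 4 rose in HCN4F-TAC against HCN4F-Sham, where 7.2% of all genes rose. Fap did not pass (0.26 ± 0.22, adjusted p = 0.473), and none of the 5 was at 0 in all libraries. Without HCN4F-TAC replicate 2, 3 of the 5 rose, where 1329 of 15220 genes were called in either direction. In HCN4F-Sham, where Timp1 ran from 1.12 to 4.82 CPM, the sum was highest, 46.0 CPM, in the library with the least Timp1 and lowest, 35.1 CPM, in the library with the most. In WT-TAC it was 53.9 CPM in replicate 2 and 51.3 CPM in replicate 3, the opposite order to Timp1. The sum of 6 macrophage markers (Adgre1, Cd68, Csf1r, C1qa, Mrc1 and Lyz2) had the order of Timp1 in HCN4F-Sham, at 223.5, 219.5, 211.7 and 170.2 CPM in replicates 1 to 4, and in WT-TAC, at 160.3 and 171.4 CPM. It was 202.8, 251.0, 163.5 and 255.4 CPM in HCN4F-TAC, lowest in replicate 3, and 159.9 to 192.7 CPM in WT-Sham, so that the groups overlapped. The part of either cell type in the Timp1 difference was not tested.

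Timp2, which blocks MMPs and also takes part in the activation of pro-MMP2 by the membrane-bound MMP14, differed little between groups. It was at 93.2, 101.3, 104.6 and 102.6 CPM in WT-Sham and 83.1, 104.7, 100.8 and 99.7 CPM in HCN4F-Sham. WT-TAC held 97.8 and 78.8 CPM and HCN4F-TAC 99.6, 113.9, 88.5 and 119.6 CPM. All groups overlapped. The log2 difference after TAC was 0.12 ± 0.10 in HCN4F (95% interval -0.09 to 0.33; adjusted p = 0.469) and -0.19 ± 0.12 in WT (-0.45 to 0.07; adjusted p = 0.392), the latter -0.35 without WT-TAC replicate 2 and -0.04 without replicate 3.

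Timp3, the inhibitor that stays bound to the matrix and also blocks ADAM sheddases, spread widely within HCN4F-Sham. Its WT-Sham libraries were at 175.7, 201.7, 174.3 and 188.3 CPM, its HCN4F-Sham libraries at 125.7, 201.5, 231.6 and 270.4 CPM. WT-TAC libraries held 205.1 and 142.2 CPM and HCN4F-TAC libraries 225.8, 190.4, 163.2 and 154.7 CPM. The lowest and the highest of all 14 values were both HCN4F-Sham, so that the groups overlapped throughout, and the log2 difference after TAC was -0.18 ± 0.20 in HCN4F (adjusted p = 0.602) and -0.09 ± 0.24 in WT (adjusted p = 0.864). Leaving out HCN4F-Sham replicate 1 moved the former to -0.35, and leaving out replicate 4 of that group moved it to -0.02. Timp1, Timp3 and Timp4 overlap the synapsin genes Syn1, Syn3 and Syn2 on the opposite strand, with shared exon stretches of 0, 1733 and 90 bp. Whether counting used strand was not given in the sources used here, so reads in the shared stretches could fall to either gene, and Syn3 itself was counted at 0.382 to 1.03 CPM.

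Timp4 is the inhibitor most typical of heart muscle. It was at 96.5, 74.9, 55.5 and 86.9 CPM in WT-Sham and at 68.2, 73.5, 40.7 and 72.3 CPM in HCN4F-Sham. After TAC it was at 68.3 and 36.6 CPM in WT and at 55.1, 43.0, 38.3 and 47.6 CPM in HCN4F. The group means were lower after TAC in both genotypes, but TAC and Sham libraries of the same genotype overlapped, and the log2 difference was -0.47 ± 0.24 in HCN4F (95% interval -0.99 to 0.05; adjusted p = 0.223) and -0.59 ± 0.30 in WT (-1.23 to 0.06; adjusted p = 0.271). The WT value was -1.1 without WT-TAC replicate 2 and -0.20 without replicate 3. The summed cardiomyocyte markers were also lower after TAC, at 47940 to 54065 CPM in HCN4F-TAC against 56844 to 60254 in HCN4F-Sham, and at 59821 to 59971 in WT-TAC against 64670 to 67041 in WT-Sham. Of the 6 markers, 4 were called lower and 1 higher in HCN4F, where 6.42% of all genes fell and 7.2% rose. In WT 2 were called lower, where 1.62% of all genes fell, and 2 were of the opposite sign. The part of these markers in Timp4 was not tested. As mean Timp1 was higher and mean Timp4 lower in HCN4F-TAC, the CPM ratio of Timp4 to Timp1 was also taken. It was 3.72 to 10.8 in HCN4F-TAC libraries and 14.2 to 64.8 in HCN4F-Sham libraries, with no overlap. Each gene alone overlapped between these groups. In WT the ratio was 33.0 to 63.7 in Sham and 8.89 and 50.4 in the 2 TAC libraries. Of these, 1 was below and 1 within the Sham range. Other CPM ratios were also computed. Mmp2 to Timp2 lay apart in HCN4F as well (0.599 to 0.865 after TAC, 0.488 to 0.566 in Sham). Timp1 to Mmp3, Mmp14 to Timp2 and Mmp14 to Mmp15 overlapped there. How many pairs of genes lie apart in this way was not computed.

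**Figure D2:**
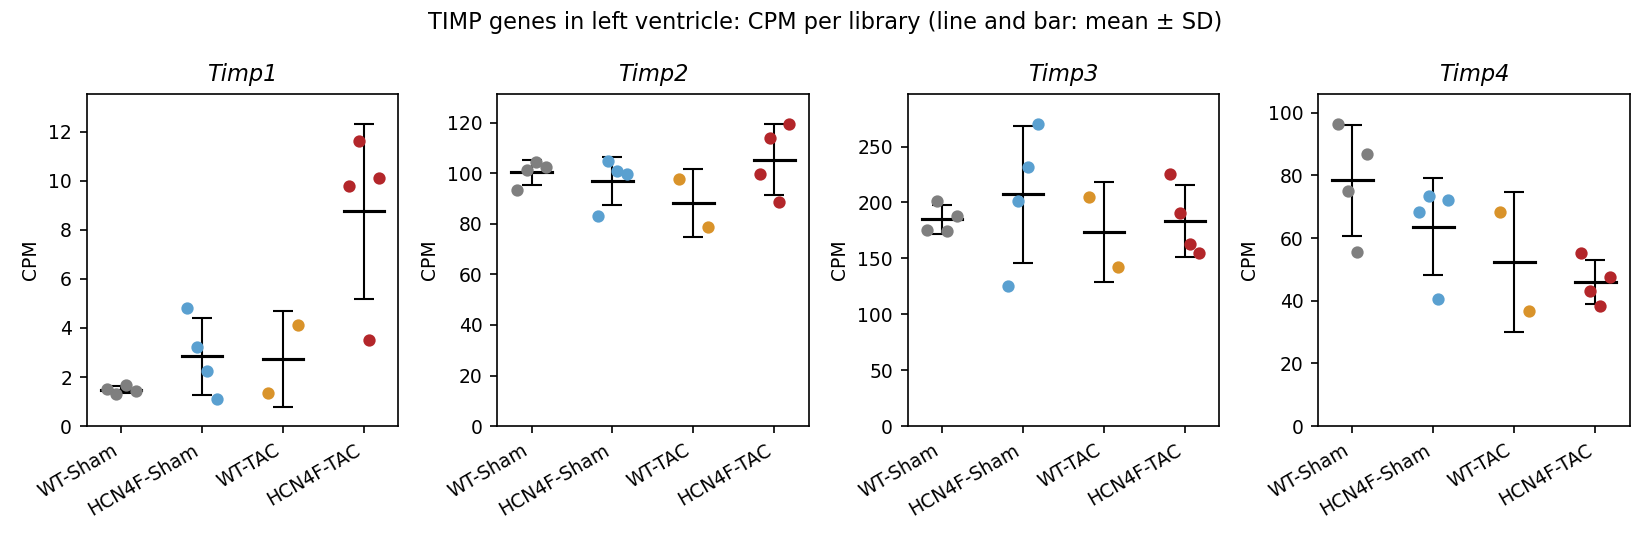
CPM of the 4 TIMP genes (y axes from 0) in each library by group, with points for libraries and a line and bar for the mean ± SD. Timp1 reaches 9.78 to 11.6 CPM in 3 HCN4F-TAC libraries, against 1.12 to 4.82 CPM over both Sham groups. Timp2 and Timp3 overlap between all groups, and Timp4 in all pairs but WT-Sham and HCN4F-TAC (55.5 to 96.5 and 38.3 to 55.1 CPM).

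Mmp3, stromelysin-1, which cuts proteoglycans, laminin and fibronectin and activates other pro-MMPs, was the member whose change after TAC passed under every alternative run. It lies at chr9:7445822-7455975 (plus strand), on the same chromosome as Hcn4 and 51.4 megabases from it. It was at 3.62, 2.03, 2.71 and 2.55 CPM in WT-Sham and at 2.11, 1.69, 2.02 and 1.51 CPM in HCN4F-Sham. After TAC it was at 2.01 and 1.60 CPM in WT and at 3.32, 5.50, 3.32 and 3.70 CPM in HCN4F, from 37 to 167 counts per library overall. Every HCN4F-TAC library was above every HCN4F-Sham and every WT-TAC library. Both WT-TAC libraries were below all 4 WT-Sham libraries, but the nearest of them, at 2.01 and 2.03 CPM (49 and 56 counts), were almost level. The share of all genes whose groups lay apart in this way was not computed. In HCN4F hearts TAC raised Mmp3 by 1.12 ± 0.21 on the log2 scale (95% interval 0.68 to 1.56; fold 2.17; adjusted p = 0.00206), and this passed the test under all 21 alternatives, with values of 0.91 to 1.20. The fibroblast, activated fibroblast and atrial marker sums were, like Mmp3, highest in HCN4F-TAC replicate 2, at 525.8, 243.9 and 55.2 CPM, and the activated fibroblast sum was higher in every HCN4F-TAC library (66.7 CPM or more) than in every HCN4F-Sham library (46.0 CPM or less). Their part in the Mmp3 difference was not tested.

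In WT hearts the log2 difference of Mmp3 was of the opposite sign, -0.60 ± 0.26 (95% interval -1.16 to -0.05; adjusted p = 0.189). The difference between the genotypes in the TAC response, the interaction term, was 1.72 ± 0.34 (95% interval 1.01 to 2.43; unadjusted p = 8.82e-05), and its adjusted p was 0.193 over all genes. With DESeq2 in place of edgeR the same term had an adjusted p of 0.0025. For the interaction, edgeR called 0 of 15292 genes (0%), with 1418 at an unadjusted p under 0.05, and DESeq2 called 40. Against WT-TAC, HCN4F-TAC hearts were 1.15 ± 0.26 higher in log2 Mmp3 (95% interval 0.60 to 1.70; adjusted p = 0.101 by edgeR and 0.00901 by DESeq2), and without HCN4F-TAC replicate 3 the edgeR value was 1.23 with an adjusted p of 0.0214. Without HCN4F-TAC replicate 2 it was 0.93 (adjusted p = 0.23) and without WT-TAC replicate 2 it was 1.31 (adjusted p = 0.469), the lowest and the highest over single-library omissions. The interaction was 1.5 (adjusted p = 0.314) without HCN4F-TAC replicate 2 and 1.80 (adjusted p = 0.031) without replicate 3. HCN4F-Sham hearts were 0.57 ± 0.21 lower than WT-Sham hearts, a log2 value of -0.57 (adjusted p = 0.216). The comparisons named here share groups, so that the low Mmp3 of HCN4F-Sham libraries enters both the TAC response of HCN4F and the Sham difference.

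Mmp2, gelatinase A, made largely by fibroblasts, was at 52.3, 56.1, 55.8 and 53.3 CPM in WT-Sham and at 45.4, 59.3, 51.9 and 48.7 CPM in HCN4F-Sham. It was at 61.9 and 46.1 CPM in WT-TAC and at 59.7, 98.5, 58.2 and 80.5 CPM in HCN4F-TAC. Replicates 2 and 4 of HCN4F-TAC stood above every other library, while replicates 1 and 3 were near the top of the Sham range. The gene rose by 0.53 ± 0.15 on the log2 scale after TAC in HCN4F (95% interval 0.22 to 0.85; fold 1.45; adjusted p = 0.0267) and differed by -0.01 ± 0.18 in WT (-0.40 to 0.38; adjusted p = 0.981). The call in HCN4F was lost without HCN4F-Sham replicate 1, 3 or 4 or HCN4F-TAC replicate 2 or 4 (adjusted p 0.057 to 0.081), and without HCN4F-TAC replicate 2, the library with the most atrial marker RNA, the log2 change was 0.36. With all libraries kept, edgeR also lost it on the compared groups alone (adjusted p = 0.0723) and without the filter on low counts (adjusted p = 0.0936). The interaction term was 0.55 ± 0.24 (adjusted p = 0.505).

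Mmp14, membrane-type MMP-1, which activates pro-MMP2 at the cell surface, had the same HCN4F-TAC libraries on top. It was at 25, 24, 20.9 and 25.2 CPM in WT-Sham, at 28.7, 27.0, 15.7 and 15.7 CPM in HCN4F-Sham and at 24.6 and 22.3 CPM in WT-TAC. HCN4F-TAC held 23.8, 42.5, 23.5 and 40.1 CPM. Replicates 2 and 4 were above every other library and replicates 1 and 3 were at the WT level. The log2 difference after TAC in HCN4F was 0.58 ± 0.24 (95% interval 0.06 to 1.1; adjusted p = 0.131), which did not pass with edgeR and did with DESeq2 (0.59, adjusted p = 0.0435), and in WT it was -0.02 ± 0.29 (adjusted p = 0.98). The edgeR value in HCN4F without HCN4F-TAC replicate 2 was 0.42 (adjusted p = 0.321). The sum of the fibroblast markers split HCN4F-TAC in the same way as Mmp2 and Mmp14, at 441.6, 525.8, 397.8 and 507.1 CPM in replicates 1 to 4, and so did the atrial marker sum, at 9.49, 55.2, 6.32 and 18.4 CPM. Their part in both genes was not tested.

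Mmp23, a membrane-anchored member that lacks the usual cysteine switch, was at 4.88, 4.71, 5.43 and 4.67 CPM in WT-Sham and at 5, 5.93, 3.47 and 4.35 CPM in HCN4F-Sham. It was at 5.71 and 4.58 CPM in WT-TAC and at 7.42, 9.12, 4.73 and 10.9 CPM in HCN4F-TAC. HCN4F-TAC replicates 1, 2 and 4 were above all 10 libraries of the other groups and replicate 3 lay among them, the same split as for Timp1. The gene rose by 0.78 ± 0.21 on the log2 scale (95% interval 0.34 to 1.23; fold 1.72; adjusted p = 0.0202) in HCN4F and differed by 0.06 ± 0.26 in WT (adjusted p = 0.927). The call was lost without HCN4F-Sham replicate 3 or 4 or HCN4F-TAC replicate 2 or 4 (adjusted p 0.0554 to 0.0672), and with edgeR on the compared groups alone (adjusted p = 0.0763). The macrophage marker sum had the same order over the 4 HCN4F-TAC libraries as Mmp23, from 163.5 CPM in replicate 3 to 255.4 CPM in replicate 4, and the activated fibroblast and atrial sums were also lowest in replicate 3, at 66.7 and 6.32 CPM. Their part in Mmp23 was not tested. Against WT-TAC the difference was 0.65 ± 0.26 (adjusted p = 0.319), and without HCN4F-TAC replicate 3 it was 0.84 (adjusted p = 0.0318). It was 0.57 (adjusted p = 0.541) without HCN4F-TAC replicate 2, 0.47 without replicate 4, and 0.81 (adjusted p = 0.729) without WT-TAC replicate 2.

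Mmp9, gelatinase B, carried above all by neutrophils and macrophages, was near the detection floor, with 6 to 38 counts per library. It was at 0.591, 0.834, 0.229 and 0.392 CPM in WT-Sham and at 0.790, 0.776, 1.37 and 0.935 CPM in HCN4F-Sham. It was at 0.903 and 0.658 CPM in WT-TAC and at 0.414, 1.02, 1.13 and 1.1 CPM in HCN4F-TAC. HCN4F-Sham was 0.92 ± 0.36 above WT-Sham on the log2 scale (95% interval 0.15 to 1.69; adjusted p = 0.243), and TAC gave -0.08 ± 0.34 in HCN4F (adjusted p = 0.91) and 0.59 ± 0.45 in WT (adjusted p = 0.464). The WT value was 0.35 without WT-Sham replicate 3 and 0.92 without WT-Sham replicate 2. The sum of 6 neutrophil markers (S100a8, S100a9, Csf3r, Cxcr2, Retnlg and Ly6g, the last at 3 counts or fewer in every library) was also lowest in WT-Sham, at 0.573 to 1.31 CPM, against 1.96 to 2.97 in HCN4F-Sham, 2.43 to 3.74 in WT-TAC and 1.82 to 5.79 in HCN4F-TAC. The part of these markers was not tested.

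Mmp15, membrane-type MMP-2, was the most abundant of the 10 per kb, and of the 10 it alone passed between genotypes in Sham with edgeR. That call was lost under 9 of 21 alternatives. It lies at chr8:95352268-95375080 (plus strand). WT-Sham libraries were at 199.2, 215.4, 210.2 and 195.3 CPM and WT-TAC libraries at 208.1 and 182.5 CPM. HCN4F-Sham libraries were at 176.8, 161.4, 153.7 and 149.3 CPM and HCN4F-TAC libraries at 138.7, 148.0, 145.2 and 156.0 CPM. Each of the 8 HCN4F libraries was below each of the 6 WT libraries. The title numbers part the libraries in the same way, so genotype and whatever they stand for cannot be told apart here. The share of all genes that lie apart between the genotypes was not computed. In Sham hearts Mmp15 was lower in HCN4F by a log2 value of -0.35 ± 0.07 (95% interval -0.51 to -0.20; fold 0.782; adjusted p = 0.0411), where 0.229% of all genes had a higher and 0.242% a lower call in that comparison. None of the other 9 passed it.

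After TAC, in libraries not used for the Sham comparison, the Mmp15 difference was of similar size, -0.41 ± 0.09 (95% interval -0.60 to -0.22; fold 0.753; unadjusted p = 0.000224, adjusted p = 0.0904). DESeq2 gave -0.42 with an adjusted p of 0.00106 there and -0.36 with an adjusted p of 0.000191 in Sham. TAC itself gave -0.13 ± 0.07 in HCN4F (adjusted p = 0.278) and -0.07 ± 0.09 in WT (adjusted p = 0.684), and the interaction was -0.05 ± 0.11 (95% interval -0.30 to 0.19; adjusted p = 0.919). The Sham call was marginal: it was lost without any 1 WT-Sham library and without HCN4F-Sham replicate 2, 3 or 4, where log2 values were -0.38 to -0.32 and adjusted p-values 0.0621 to 0.124. The summed cardiomyocyte markers differed the same way in Sham, 64670 to 67041 CPM in WT and 56844 to 60254 CPM in HCN4F, and the part of that difference in Mmp15 was not tested. None of the 6 markers passed singly in Sham, where 0.229% of all genes were called higher and 0.242% lower, and 1 of them was higher in HCN4F. The endothelial marker sum (Pecam1, Cdh5, Kdr, Tie1 and Egfl7) overlapped, at 800.2 to 970.2 CPM in WT-Sham and 675.7 to 1228 CPM in HCN4F-Sham.

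**Figure D3:**
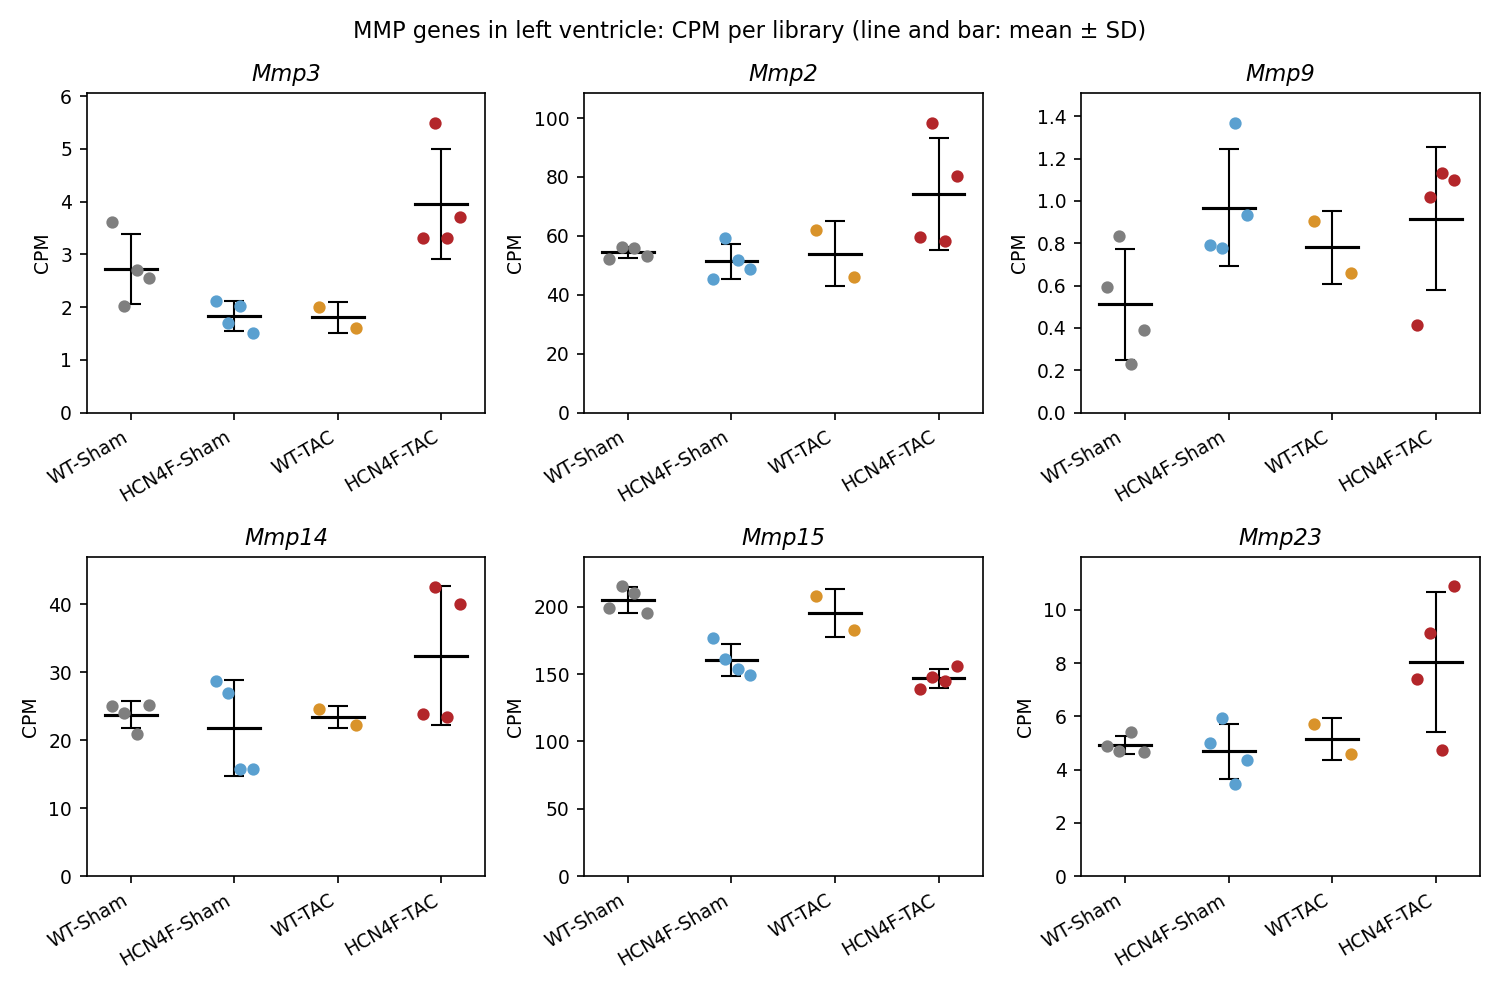
CPM of the 6 MMP genes (y axes from 0) in each library by group, with points for libraries and a line and bar for the mean ± SD. Mmp3 is at 3.32 to 5.50 CPM in HCN4F-TAC and 1.51 to 2.11 CPM in HCN4F-Sham, and Mmp15 is at 138.7 to 176.8 CPM in the 8 HCN4F libraries and 182.5 to 215.4 CPM in the 6 WT libraries.

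Across the 10 genes, WT hearts gave no call after TAC with edgeR or DESeq2, and 1 gene, Mmp3, had an unadjusted p under 0.05 with edgeR, where 22% of all genes did. Of all genes, 4.54%, or 694, were called in WT-TAC against WT-Sham, a count that fell to 11 without WT-TAC replicate 3 and to 160 to 176 without WT-TAC replicate 2 or WT-Sham replicate 1 or 4. The median log2 difference of the 10 genes was -0.05. In HCN4F-TAC against WT-TAC edgeR called none of the 10, where 0.111% of all genes, or 17, were called. In the same fit of all 14 libraries, Timp1, Mmp2, Mmp3, Mmp15 and Mmp23 had an unadjusted p under 0.05, against 12.5% of all genes, and 3 of the 10 did without HCN4F-TAC replicate 2. Without HCN4F-TAC replicate 3, 454 genes were called, with Mmp3, Mmp15 and Mmp23 among them. With all libraries DESeq2 called Mmp3 and Mmp15, and the edgeR median log2 difference of the 10 was 0.36 against 0.00 over all genes. None of the 10 passed the interaction test with edgeR on all libraries and filtered genes, while Mmp3 passed it with DESeq2, with edgeR without the filter on low counts (1.71, adjusted p = 0.00222) and with edgeR without HCN4F-TAC replicate 3, and Mmp2, Mmp3 and Mmp23 had an unadjusted p under 0.05 with edgeR, against 9.27% of all genes, a count of 3 that was 1 without HCN4F-TAC replicate 2. A call in HCN4F beside none in WT therefore does not show a different TAC response, and WT-TAC had 2 libraries where HCN4F-TAC had 4.

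**Figure D4:**
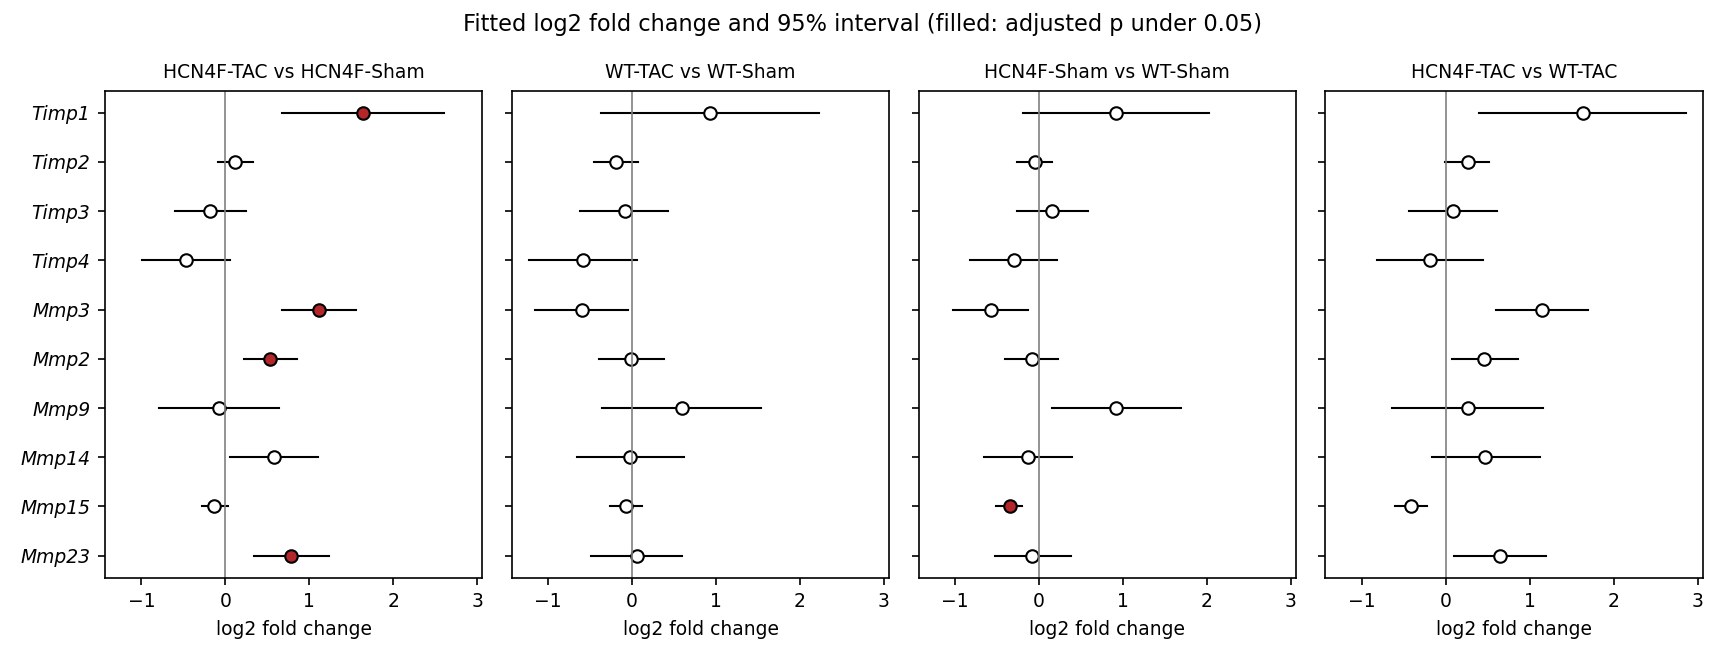
Fitted log2 fold change (x axis) with its 95% interval for each of the 10 genes in the 4 comparisons, with filled points where the adjusted p was under 0.05. Filled points are Timp1, Mmp3, Mmp2 and Mmp23 in HCN4F-TAC vs HCN4F-Sham and Mmp15, at -0.35, in HCN4F-Sham vs WT-Sham.

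Of 17 further Mmp genes in the table, 10 had too few counts to be tested (among them Mmp7, Mmp8 and Mmp10), and none of the 7 tested passed in any of the 4 comparisons with edgeR, which is near the background for 7 genes, since 7.2% of all genes rose and 6.42% fell in HCN4F after TAC. DESeq2 called none either, with an adjusted p for 7 of them in both comparisons with HCN4F-TAC, 4 in WT-TAC against WT-Sham and 5 in Sham. With edgeR, 1 fell after TAC in HCN4F when HCN4F-Sham replicate 4 or HCN4F-TAC replicate 3 was left out, or when genes were filtered at a mean of 1 CPM. In HCN4F-TAC against HCN4F-Sham their median log2 difference was -0.26, and the lowest adjusted p was that of Mmp11, stromelysin-3, at 4.41 CPM against 5.59 CPM (-0.33 ± 0.11, adjusted p = 0.0613). Mmp28 gave -0.27 ± 0.16 (adjusted p = 0.303), Mmp17 -0.12 ± 0.14 (0.616 as adjusted p) and Mmp19 0.17 ± 0.20 (adjusted p = 0.632).

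Genes that activate, inhibit, clear or anchor MMPs were measured from a list of 14, of which 13 were tested. After TAC in HCN4F hearts 2 rose and none fell with edgeR, with a list median of 0.20, where 7.2% of all genes rose and 6.42% fell. DESeq2 called 3 higher and 1 lower, edgeR 2 higher and 2 lower without HCN4F-Sham replicate 1, and the compared groups alone gave 1 higher in HCN4F and 3 in WT. Cd44, the hyaluronan receptor that also docks MMPs on the cell surface, went from 8.34 CPM (7.07 to 9.67 over libraries) to 17.9 CPM (13.5 to 25.1), by 1.09 ± 0.20 on the log2 scale (adjusted p = 0.0028). Plat, tissue plasminogen activator, rose by 0.46 ± 0.11 (adjusted p = 0.0109). Lrp1, the endocytic receptor that clears MMPs and TIMPs, gave 0.35 ± 0.12 (adjusted p = 0.0557), and Spock2, a testican proteoglycan, gave -0.72 ± 0.25 (adjusted p = 0.0772). In WT hearts, where 2.92% of all genes rose and 1.62% fell, Cd44 (1.13 ± 0.24, adjusted p = 0.0232) rose as well, though not without WT-TAC replicate 3 or WT-Sham replicate 1. No gene of the list passed between genotypes, which is near the background for 13 genes. Of all genes, 0.111% were called after TAC, and 0.229% were called higher and 0.242% lower in Sham. Without HCN4F-TAC replicate 2, 2 genes of the list rose and 1 fell in HCN4F.

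Of the 7 ADAM genes, metalloproteinases that shed membrane proteins, 3 rose and none fell after TAC in HCN4F with edgeR, where 7.2% of all genes rose and 6.42% fell. These were Adam12 (1.01 ± 0.25, adjusted p = 0.0129), Adam9 (0.34 ± 0.09, adjusted p = 0.0154) and Adam17 (0.23 ± 0.07, adjusted p = 0.0289), the last known as the TNF-converting enzyme that Timp3 inhibits. Adam19 gave 1.07 ± 0.36 (adjusted p = 0.0713), and without HCN4F-TAC replicate 2, 2 of the 7 rose. In WT, where 2.92% of all genes rose and 1.62% fell, none passed with edgeR, DESeq2 called 2, and edgeR called 1 without the filter on low counts, without HCN4F-TAC replicate 2 and without HCN4F-Sham replicate 1, 2 or 3. Fitted on the compared groups alone, 3 ADAM genes rose in WT and 1 in HCN4F, so the counts of the genotypes do not show a difference between them. Adam17 gave 0.27 ± 0.08 (adjusted p = 0.0613) and Adam9 0.32 ± 0.10 (adjusted p = 0.0848).

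RNA of genes for matrix proteins that MMPs cut was measured from a list of 17 genes. Of these, 15 rose and none fell after TAC in HCN4F, with a list median of 1.00 in log2, where 7.2% of all genes rose. In WT 5 rose and none fell, with a list median of 0.38, where 2.92% of all genes rose. Vcan, the proteoglycan versican, rose by 1.38 ± 0.11 (adjusted p = 3.98e-06), the fibrillar collagen gene Col5a2 by 1.1 ± 0.13 (adjusted p = 8.23e-05), and the basement membrane collagen genes Col4a2 by 0.74 ± 0.10 (adjusted p = 0.000245) and Col4a1 by 0.74 ± 0.11 (adjusted p = 0.000415). Without HCN4F-TAC replicate 2, 12 of the 17 rose and the median was 0.92. Dcn (0.10 ± 0.09, adjusted p = 0.5) and Lama2 (0.21 ± 0.07, adjusted p = 0.0619) did not pass. In WT hearts the 5 were Lama2, Lamc1, Thbs1, Vcan and Col4a2. Fitted on the compared groups alone, 12 of 17 rose in HCN4F, and in WT 11 of 16 rose and 1 fell, so the counts of the genotypes depend on the fit. Their medians there were 0.99 and 0.41. DESeq2 called 16 in HCN4F and 6 in WT, and the WT count with edgeR on all groups was 2 with the replicate block, 0 without WT-TAC replicate 3, 1 without WT-TAC replicate 2 or WT-Sham replicate 1 or 4, 2 without WT-Sham replicate 2 and 8 without HCN4F-TAC replicate 3. Between HCN4F-TAC and WT-TAC, Vcan passed with edgeR (0.91 ± 0.14, adjusted p = 0.00619) and the other 16 did not, while DESeq2 called 9 of the 17, and edgeR called 10 without HCN4F-TAC replicate 3, where 228 and 454 genes were called in all. The count was 1 without HCN4F-TAC replicate 2, and Vcan too was no longer called on the compared groups alone, with the replicate block or without WT-TAC replicate 2, where the count was 0.

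Genes with the pattern most like Timp1 and Mmp3 over the 14 libraries were sought among 12555 genes with a mean of at least 1 CPM, by the root mean square difference of log2 CPM after each gene was set to its own WT-Sham mean. Nearest to Timp1 were Tnc, the matricellular protein tenascin-C (difference 0.502), Cpxm2, a carboxypeptidase-like protein (0.599 for this difference), and Col8a2, a collagen VIII chain (difference 0.609). Col8a2 averaged 0.417, 0.612 and 0.667 CPM in the other groups and 3.96 CPM in HCN4F-TAC, so it reached a mean of 1 CPM through HCN4F-TAC alone, and the filter itself fixes part of that likeness. The 3 genes were chosen for likeness to Timp1 over these same 14 libraries, so shared highs and lows follow from the choice. All 3 shared with Timp1 a HCN4F-TAC replicate 3 below the other HCN4F-TAC libraries: Timp1 was 1.22 and Tnc 1.05 above its WT-Sham mean in log2 there, against 2.67 to 2.91 and 2.10 to 2.38 in the other 3. The 2 genes were farthest apart in HCN4F-Sham replicate 1, where Timp1 was at 1.66 and Tnc at 0.65, in HCN4F-TAC replicate 2, at 2.91 and 2.10, and in WT-TAC replicate 2, at -0.12 and 0.68.

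Nearest to Mmp3 were Basp1, a membrane-associated signalling protein (difference 0.275), Tnfrsf1b, the TNF receptor 2 (difference 0.314), and Ppfia4, a liprin (difference 0.316). Mmp3 ran from -0.80 in HCN4F-Sham replicate 4 to 1.02 in HCN4F-TAC replicate 2, and Basp1 from -0.73 to 0.78 in the same libraries. This likeness is a description of 14 libraries that share depth and tissue makeup, with no test.

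**Figure D5:**
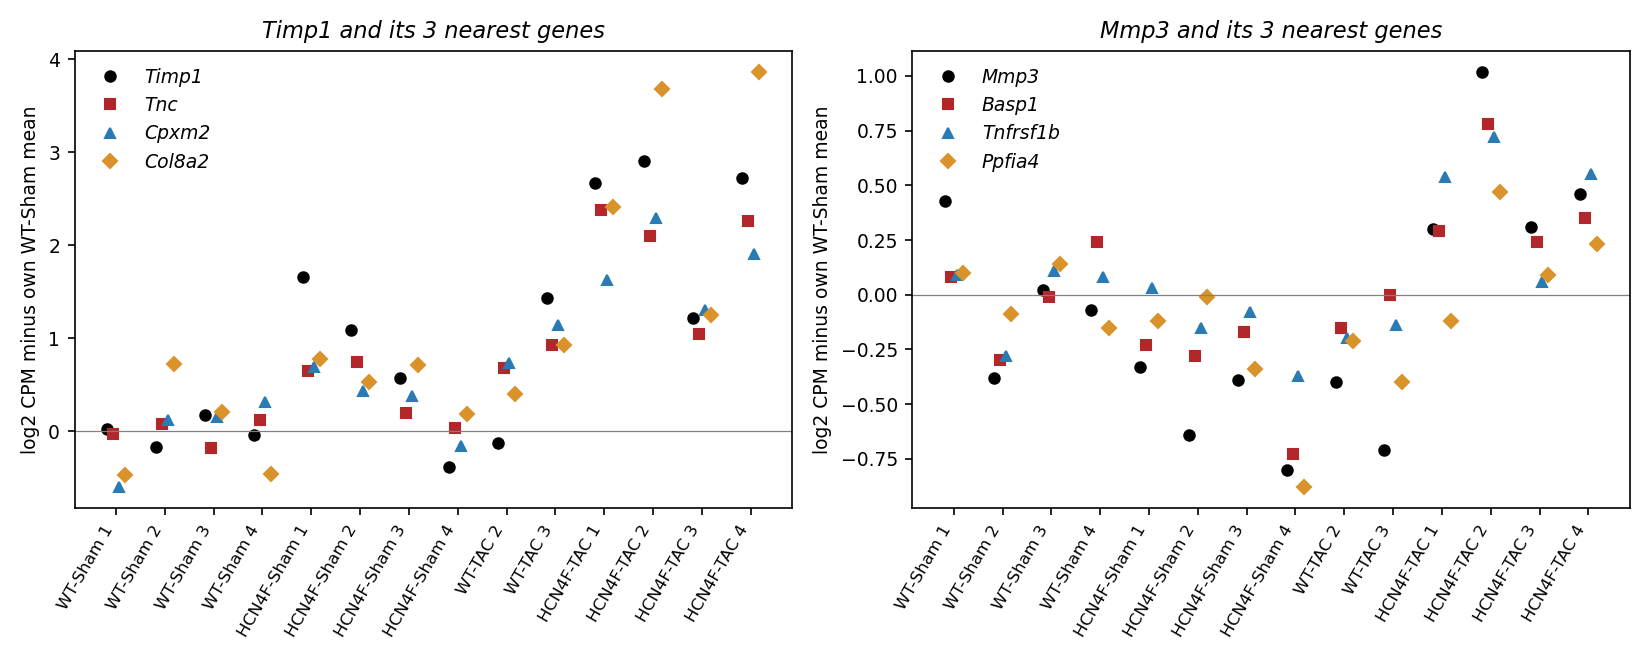
Log2 CPM minus the gene's own WT-Sham mean (y axes) in each of the 14 libraries for Timp1 (left) and Mmp3 (right) with their 3 nearest genes, 1 marker shape per gene. Timp1 is at 2.67 to 2.91 in 3 HCN4F-TAC libraries and 1.22 in replicate 3, and Mmp3 lies between -0.80 and -0.33 in HCN4F-Sham and between 0.30 and 1.02 in HCN4F-TAC.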

How the data were processed

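Poly(A)-selected RNA from left ventricles was sequenced on an Illumina platform by the authors, who deposited raw read counts per gene, with GRCm38 named in the processing notes. The aligner, counter and strand setting were not given in the sources used here. The table held 2 further columns of per-sample values, named as WT and TAC, that matched no sample given here and were not used, so 14 of the 16 samples the study describes were analysed. All 14 libraries entered 1 edgeR 4.0.16 fit (R 4.3.3; TMM scaling, filterByExpr, robust quasi-likelihood test, limma 3.58.1), with Benjamini-Hochberg adjustment over 15292 genes and a threshold of 0.05. CPM use TMM library sizes, and log2 CPM per library a prior count of 2. SE are the log2 fold change over the root of F, and intervals are 95%. Exon lengths and positions are from GENCODE M21 (99.5% of gene IDs matched). Floors cover counting error only. On simulated counts for HCN4F-TAC vs HCN4F-Sham (15040 genes), 69 of 84 genes changed by 1 in log2 and 111 of 116 changed by 2 were recovered, with 11 false calls; in WT-TAC vs WT-Sham (15064 genes) these were 61 of 89, 102 of 111 and 10, and in HCN4F-TAC vs WT-TAC (15035 genes) 73 of 99, 90 of 101 and 4. Replicates of a group differed by more than sampling noise (chi-square per gene 6.6 to 66.2). Alternatives were DESeq2 1.42.0, the compared groups alone, DESeq2 size factors, other filters, no robust estimation, a replicate block and each library left out. The 10 genes are given in full, and other lists by counts and up to 4 genes of lowest adjusted p in HCN4F-TAC vs HCN4F-Sham. Further genes (Dcn, Lama2, Fap, Vcan between genotypes, and those called in WT) were named, and list counts under the alternatives added, after the values were seen. The genes, lists and tests were chosen with earlier results of these data known. 1 gene of the MMP regulator list is not reported here.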

Additional observations from a re-analysis of the deposited data

Results flagged for a closer look

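Of 30 groups of 4 libraries tested, 2 held a library far from the other 3, by Dixon's ratio of the gap to the nearest library over the group's range, which flags about 1 in 20 groups by chance. Timp4 was at 40.7 CPM in HCN4F-Sham replicate 3, against 68.2 to 73.5 CPM in the other HCN4F-Sham libraries (ratio 0.839). Mmp9 was at 0.414 CPM in HCN4F-TAC replicate 1, from 10 counts, against 1.02 to 1.13 CPM in the other HCN4F-TAC libraries (ratio 0.847).

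The TAC response of Mmp3 had opposite signs in the genotypes. All HCN4F-TAC libraries lay above all HCN4F-Sham libraries. Both WT-TAC libraries lay below all WT-Sham libraries, but the nearest were at 2.01 and 2.03 CPM (49 and 56 counts). The WT response did not pass with edgeR (-0.60, adjusted p = 0.189). How many of all genes lie apart in this way was not computed. The difference of the responses was 1.72 on the log2 scale, with an adjusted p of 0.193 with edgeR. Over 20 alternatives it ranged from 1.5 to 1.88, with adjusted p-values of 0.00222 to 0.527, and 3 of them passed.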

How the results depend on the processing

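Of 335 log2 values under alternatives that keep all libraries, 314 kept their direction and side of the threshold, 8 lost and 8 gained a call and 5 changed sign; of 700 values with 1 library left out, these counts were 651, 22, 4 and 23. The cause of each change was not tested. The number of genes called in HCN4F-TAC vs HCN4F-Sham was 4, and 5 with DESeq2 (adding Mmp14), 1 with the compared groups alone, 2 without the filter, 2 with the fold threshold and 1 to 4 with 1 library left out. In HCN4F-TAC vs WT-TAC it was 0, and 2 with DESeq2, 2 without the filter and 0 to 3 with 1 library left out (3 without HCN4F-TAC replicate 3). In HCN4F-Sham vs WT-Sham it was 1, and 0 with the compared groups alone, with the replicate block and with the fold threshold, and 0 to 1 with 1 library left out. For the interaction it was 0, and 1 with DESeq2, 1 without the filter and 0 to 1 with 1 library left out.

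Same-numbered libraries correlated at -0.12 to 0.159, so the numbers are not taken to pair them. With the replicate block, HCN4F-TAC vs HCN4F-Sham called Mmp3, Mmp23 and Mmp2 higher and Timp4 lower (-0.44, adjusted p = 0.0172), and Timp1 (1.69, adjusted p = 0.0586) and, in Sham, Mmp15 (-0.36, adjusted p = 0.0687) were no longer called; all-gene counts were 1974, 225, 8, 41 and 0 in the order HCN4F TAC, WT TAC, genotype after TAC, genotype in Sham and interaction, against 2082, 694, 17, 72 and 0. All-gene counts were 1224, 228, 362 and 40 with DESeq2 and 871, 146, 219 and 17 without the filter for the last 4 of these, and 1286, 2009, 3 and 106 with the compared groups alone for the first 4. With 1 library left out they ran from 1329 to 2394, 11 to 1014, 6 to 454, 19 to 567 and 0 to 78; the 454 and 78 were without HCN4F-TAC replicate 3, the 11 without WT-TAC replicate 3 and the 567 without HCN4F-Sham replicate 1.

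Sign changes were in values that were not called. In WT TAC, Mmp2 (-0.01) was 0.00 with the compared groups alone and 0.01 without the filter, and Mmp14 (-0.02) was 0.00 without the filter and 0.03 with the block; the Timp4 interaction (0.12) was -0.03 with the block. With 1 library left out, values ran from -0.19 to 0.15 for Mmp9 in HCN4F TAC; in WT TAC from -0.13 to 1.47 for Timp1, -0.10 to 0.22 for Mmp23, -0.38 to 0.15 for Timp3, -0.24 to 0.19 for Mmp2, -0.17 to 0.02 for Mmp15 and -0.09 to 0.05 for Mmp14. They ran from -0.57 to 0.33 for Timp4 and -0.16 to 0.37 for Timp3 in HCN4F-TAC vs WT-TAC, from -0.20 to 0.04 for Mmp23 and -0.09 to 0.02 for Timp2 in Sham, and for the interaction from -0.27 to 0.63 for Timp4, -0.33 to 0.20 for Timp3 and -0.15 to 0.04 for Mmp15. Depth limits Mmp9, at 6 to 38 counts per library, and the 2 WT-TAC libraries limit every comparison that uses them.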
